A study of Mus musculus with 6 samples.

Results

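Lysosomes are the acidic organelles in which macrophages break down what they engulf. The vacuolar ATPase, a proton pump in their membrane, uses ATP in its V1 sector to drive protons through its V0 sector into the lumen. Soluble hydrolases work at that low pH, LAMP glycoproteins line the membrane, and the transcription factors TFEB and TFE3 are known to switch on many of these genes together. The genes described here are 44 mouse genes chosen by name, all of them found among the 21965 genes of the count table: 15 for the proton pump, 4 for lysosomal membrane proteins, 11 for glycosidases and similar sugar-cutting enzymes, 4 for sulfatases, 5 for lipid handling, 3 for protein turnover (Tpp1, Ppt1 and Grn) and 2 for the regulators.

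RNA sequencing was done on polyA RNA of interstitial macrophages, which live in the lung tissue outside the air spaces, from C57Bl/6 mice aged 6 to 8 weeks and kept free of specific pathogens. The control group (3 libraries) received PBS into the peritoneum, and the treated group (3 libraries) received 1 mg of WGP, a β-glucan, by the same route, for 6 days in both cases. Lungs were taken on day 7. The cells were wild type with no transgene named, the antibodies of the sort are not named, and the labels do not state whether a library is 1 mouse or a pool, so the p-values measure only the spread between these libraries. The series asks whether training lung interstitial macrophages with β-glucan before tumour cells arrive helps control metastasis, and no tumour is named for these 6 libraries.

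Libraries held 18254678 to 20346517 counts. Levels are CPM, that is counts scaled to the library total by TMM, and a change means an adjusted p under 0.05 in the quasi-likelihood test of edgeR (Benjamini-Hochberg, 12305 genes tested). The sorted cells carried macrophage markers in both groups, with a mean of 2357 CPM of Csf1r after PBS and 2965 after WGP, and of 460 and 436 CPM of Adgre1 (F4/80). Mertk, also a marker of these cells, stood at 166 and 20.6 CPM, and Mrc1 at 841 and 199 CPM. Of 14 interstitial macrophage markers 3 rose and 5 fell, and 11 had log2 fold changes below 0. Their sums were 7879 to 8966 CPM after PBS and 6262 to 7409 after WGP, without overlap. Of 7 nonclassical monocyte markers 1 rose, and their sums overlapped (6871 to 8291 CPM after PBS and 6214 to 7945 after WGP). Neutrophil markers were present in both groups, and 0 of 7 changed. Their sums varied widely between libraries and overlapped (1201 to 2661 CPM after PBS and 1389 to 2971 after WGP). Of 14 alveolar macrophage markers 13 fell, and their summed level was 5528 to 8360 CPM after PBS and 1452 to 1836 after WGP, with none at 0. All 7 classical monocyte markers rose, from sums of 1898 to 2550 CPM to sums of 5869 to 7184. Of 8 epithelial markers 7 fell, from sums of 316 to 688 CPM to sums of 19.3 to 69.5. Endothelial markers (5 of 6 fell, mean sum 297 to 103 CPM), dendritic cell markers (2 of 6 fell, 245 to 107 CPM) and fibroblast markers (1 of 6 fell, 101 to 39.2 CPM) also had sums that did not overlap. Among all genes tested 31.0% changed, 15.2% upward and 15.7% downward. The shares of changed dendritic cell markers (33.3%) and fibroblast markers (16.7%) were near or below that. Y-linked genes summed to 114, 180 and 10.6 CPM in PBS 1, 2 and 3 and to 229, 207 and 223 CPM in WGP 1, 2 and 3. The parts that these shifts in markers and in Y-linked RNA play in the results below were not tested. In RNA of a whole sorted population, fewer cells of a type and less RNA per cell cannot be told apart.

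The lysosomal genes split in both directions after WGP. Of the 44 genes 9 rose (Atp6v1a, Lamp1, Lamp2, Galns, Npc2, Psap, Ppt1, Tfeb and Tfe3), 11 fell (Atp6v0a1, Atp6v1c1, Atp6ap2, Scarb2, Gaa, Hexa, Naglu, Manba, Arsb, Npc1 and Tpp1) and 24 did not pass the test. Among all genes tested 31.0% changed, 15.2% upward and 15.7% downward, beside 45.5% of the 44. Groups of libraries did not overlap for 26 of the 44 (59.1%) and for 48.1% of all genes. The median log2 fold change of the 44 was -0.04, beside -0.02 over all genes. Changes were small: the log2 fold changes ran from -0.57 (Arsb) to 0.64 (Npc2), no gene changed 2-fold, and the median size among the changed members was 0.45, beside 0.67 among all changed genes. All 44 passed the filter on low counts, with at least 453 counts in every library. Without PBS 1 the calls were 7 higher and 6 lower, without PBS 2 they were 9 and 6, and without WGP 3 they were 9 and 7. Calls in both directions were also fewer without both PBS 1 and PBS 3, the PBS libraries with less Y-linked RNA. With scaling by library sizes alone, which moved the median of all genes by -0.10, 7 rose and 15 fell, so that higher genes made up 31.8% of the changed members in place of 45.0% (33.4% in place of 49.2% over all genes).

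**Figure D1:**
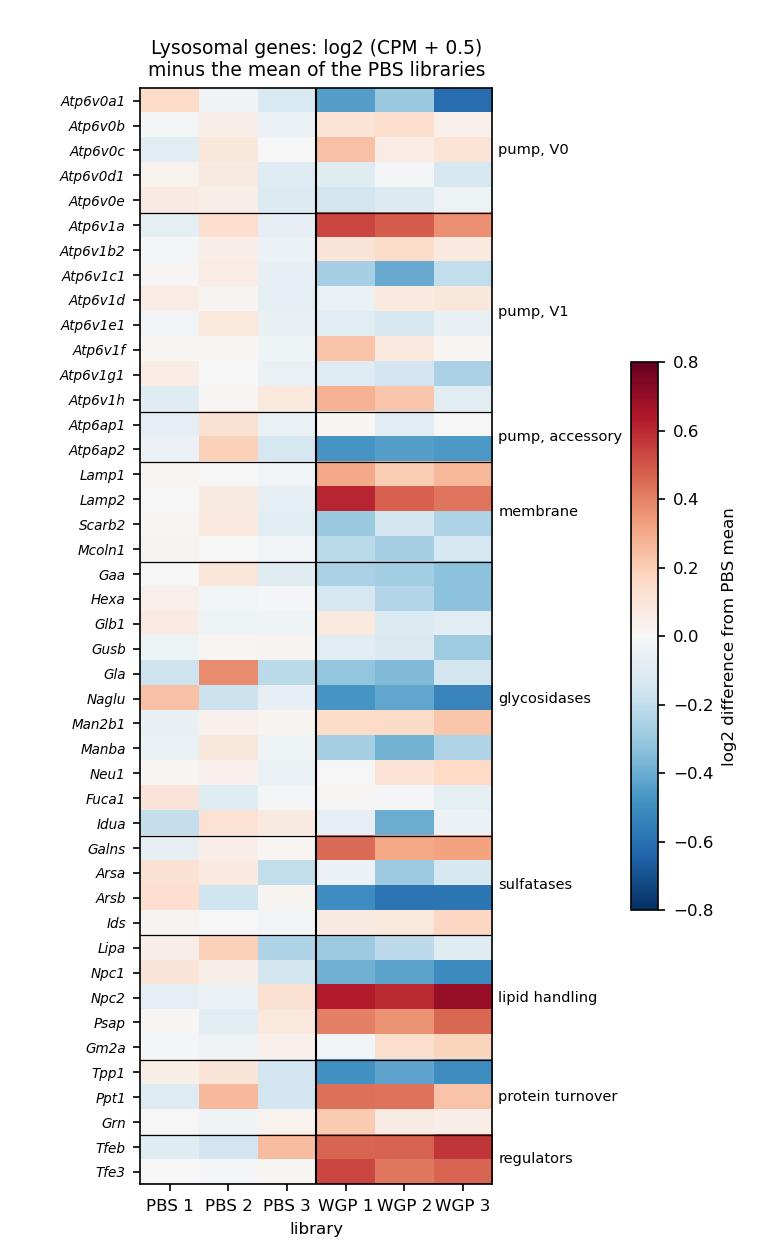
Each row is 1 of the 44 genes by role and each column 1 library, coloured by its log2 (CPM + 0.5) minus the mean of the 3 PBS libraries. Rows of both colours stand in most roles, with Npc2, Lamp2, Tfeb and Tfe3 red and Arsb, Naglu, Tpp1 and Npc1 blue in all 3 WGP libraries.

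The regulators are background for the sequences that follow: TFEB and TFE3 bind the palindrome CACGTG, and in lysosomal gene promoters a longer form of it. Promoter windows of RefSeq (GRCm38.p6, 250 bases before to 50 after each gene's start) were at hand for 38 of the 44 genes. They were searched on both strands for the core CACGTG and for the 8-letter words GTCACGTG and TCACGTGA, which both hold the core and overlap each other in some promoters. One of the 8-letter words stood in 10 of the 38 (26.3%), beside 2.77% of 27025 genes with a promoter in the table and 5.03% of 9768 such genes that were tested here. The core stood in 11 of the 38 (28.9%), beside 8.09% and 11.6%. An 8-letter word stood in 2 of 8 genes that rose, 1 of 9 that fell and 7 of 21 that did not pass, counts that were not tested against each other. Shown are all 3 changed genes with a word (Lamp1 and Atp6v1a, which rose, and Naglu, which fell) and 3 that did not pass (Atp6v0d1, with both words overlapping, and Gla and Mcoln1, with 2 sites each). Capitals mark the words or the core, and the flanks are lower case, 5′ to 3′ on the gene's strand. A match is a description of the letters and not a measured binding site.
Lamp1, chr8:13159080-13159171, plus strand: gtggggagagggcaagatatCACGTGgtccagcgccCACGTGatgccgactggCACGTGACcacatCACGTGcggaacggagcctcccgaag
Atp6v1a, chr16:44139364-44139411, minus strand: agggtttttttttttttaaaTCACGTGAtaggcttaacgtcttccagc
Naglu, chr11:101069999-101070046, plus strand: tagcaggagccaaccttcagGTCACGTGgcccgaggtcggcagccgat
Atp6v0d1, chr8:105566041-105566089, minus strand: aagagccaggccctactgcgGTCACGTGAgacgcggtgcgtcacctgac
Gla, chrX:134601173-134601253, minus strand: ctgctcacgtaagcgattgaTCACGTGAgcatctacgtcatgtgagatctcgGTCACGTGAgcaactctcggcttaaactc
Mcoln1, chr8:3500426-3500501, plus strand: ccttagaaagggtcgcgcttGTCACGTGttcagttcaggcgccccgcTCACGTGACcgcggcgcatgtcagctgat
The Lamp1 window held 4 cores, the most of the 38, at 61, 45, 28 and 15 bases before the annotated start.

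Both regulators rose. Tfe3 measured 114, 113 and 115 CPM in PBS 1, 2 and 3 and 166, 153 and 158 CPM in WGP 1, 2 and 3, a log2 fold change of 0.48 ± 0.07 (SE, adjusted p = 5.0e-04, edgeR). The PBS libraries were nearly equal and the WGP libraries were all higher. Tfeb measured 80.9, 77.9 and 103 CPM after PBS and 120, 120 and 129 CPM after WGP (0.50 ± 0.11, adjusted p = 0.0051). Its PBS libraries were more spread, with PBS 3 the highest, and all lay below the WGP libraries. Both calls held under each of the 18 alternatives of scaling, filter, test and left-out libraries. Relatives of the same family went the other way or did not pass: Tfec fell from a mean of 45.4 ± 10.2 CPM (SD, n = 3) to 9.63 ± 1.80 CPM (-2.24 ± 0.20, adjusted p = 7.0e-05), and Mitf did not pass (-0.33 ± 0.12, adjusted p = 0.066, but 0.031 with upper quartile scaling).

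The summed level of the 15 listed pump genes stayed near its PBS level, while parts of that sum and isoforms outside it differed. The 15 pump genes summed to 2062 ± 99.9 CPM (SD, n = 3) after PBS and 2065 ± 37.5 CPM after WGP, and the libraries overlapped. By library sizes alone the sums were 2135 ± 85.8 and 1993 ± 69.7 CPM, still overlapping. One pump gene rose and 3 fell (26.7% changed, beside 31.0% of all genes), and the median log2 fold change was -0.03. For the 11 that did not pass, log2 fold changes ran from -0.17 to 0.15 and their 95% intervals reached from -0.36 to 0.39, so a difference of up to 0.39 in a single subunit lies within them.

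In the V0 sector, the membrane-embedded part through which protons pass, 1 of 5 genes changed, beside 31.0% of all genes. Atp6v0a1, an isoform of the large subunit a, measured 109, 96.0 and 90.1 CPM after PBS and 72.0, 79.5 and 64.0 CPM after WGP (-0.45 ± 0.10, adjusted p = 0.0068). All WGP libraries lay below all PBS libraries, and without both PBS 1 and PBS 3 the adjusted p was 0.08. The proteolipid gene Atp6v0c, for the rotating ring, measured 122, 139 and 130 CPM after PBS and 153, 135 and 140 CPM after WGP (0.13 ± 0.08, 95% interval -0.04 to 0.31, adjusted p = 0.22), with overlapping groups. Atp6v0d1, which couples the ring to V1, measured 166, 171 and 151 CPM after PBS and 152, 161 and 149 CPM after WGP (-0.08 ± 0.07, 95% interval -0.25 to 0.08), again overlapping. Atp6v0b and Atp6v0e had log2 fold changes of 0.10 and -0.10 and did not pass.

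In the V1 sector, which splits ATP in the cytosol, Atp6v1a rose and Atp6v1c1 fell out of 8 genes (25.0%, beside 31.0% of all genes). Atp6v1a, the catalytic subunit, measured 120, 139 and 121 CPM after PBS and 183, 177 and 163 CPM after WGP (0.46 ± 0.08, adjusted p = 0.0018). No WGP library reached down to the highest PBS library, PBS 2, and without both PBS 1 and PBS 3 the adjusted p was 0.083. Its partner in the catalytic ring, Atp6v1b2, measured 315, 329 and 307 CPM after PBS and 339, 351 and 334 CPM after WGP (0.11, adjusted p = 0.24). Atp6v1c1, part of the stalk that joins V1 to V0, measured 61.8, 63.8 and 58.5 CPM after PBS and 51.0, 46.3 and 53.6 CPM after WGP (-0.29 ± 0.09, adjusted p = 0.032). That call was lost without PBS 1 (adjusted p = 0.09), PBS 2 (0.088), WGP 1 (0.061) or WGP 2 (0.099), and with the replicate number as a block (0.073). It was also lost without both PBS 1 and PBS 3 (log2 fold change -0.34). The other 5, Atp6v1d, Atp6v1e1, Atp6v1f, Atp6v1g1 and Atp6v1h, did not pass (log2 fold changes of 0.04, -0.09, 0.11, -0.17 and 0.15), and Atp6v1g1 passed with library sizes alone (0.04).

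The accessory subunits parted. Atp6ap2, also called the prorenin receptor, measured 108, 127 and 101 CPM after PBS and 80.4, 82.3 and 81.3 CPM after WGP (-0.46 ± 0.09, adjusted p = 0.0033). The WGP libraries were nearly equal and all lay below the lowest PBS library. Atp6ap1 stayed at 378 ± 28.5 and 370 ± 14.4 CPM (-0.03, adjusted p = 0.82). The ratio of Atp6ap1 to Atp6ap2 in CPM per kb of exon was 2.92 ± 0.167 after PBS and 3.94 ± 0.197 after WGP, with no overlap.

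Per kb of exon, the pump genes after PBS ran from Atp6ap1 (125 ± 9.42 CPM per kb, SD, n = 3), Atp6v0d1 (90.8 ± 5.74) and Atp6v0b (85.6 ± 3.0) down to Atp6v1d (13.2 ± 0.662), Atp6v1c1 (11.0 ± 0.483) and Atp6v1h (4.85 ± 0.305). Atp6v0d1 and Atp6v0b lay within their spread of each other. With the length of the longest transcript in place of all exons, Atp6v0b came first. Reads shared with near-identical pseudogenes make Atp6ap2, Atp6v0c, Atp6v1f and Atp6v1g1 less certain, since each shares a stretch of at least 95% identity with a pseudogene that is not in the count table.

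**Figure D2:**
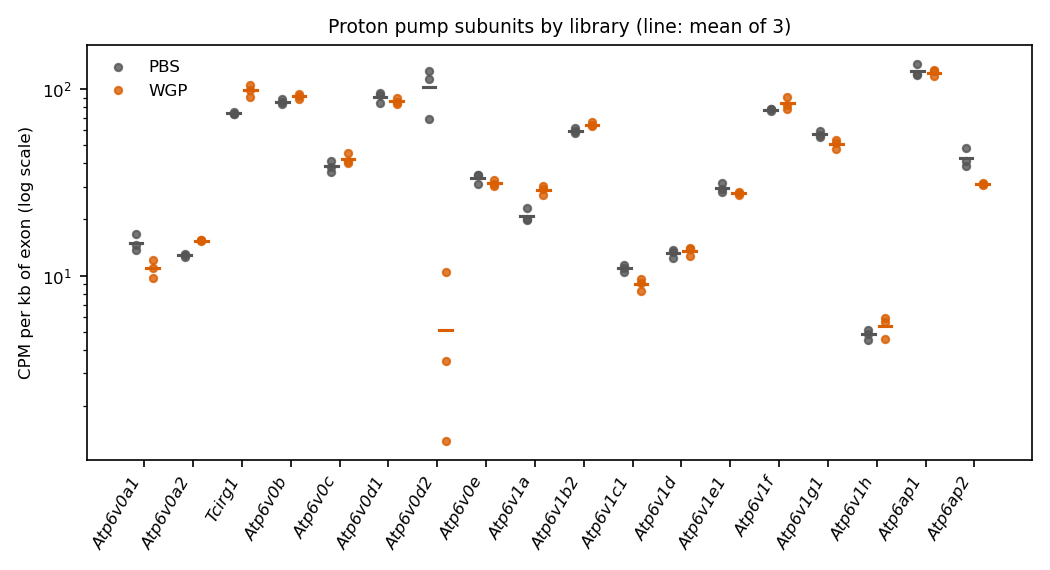
CPM per kb of exon (log axis) of 18 pump genes by library, the 15 members with the isoforms Atp6v0a2, Tcirg1 and Atp6v0d2, and short lines for the mean of 3. Atp6v0d2 fell from 102 to 5.11 CPM per kb and Atp6v0d1 remained at 90.8 and 85.8.

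Isoforms of subunits a and d that are not among the 44 genes changed too. Of 16 other pump and assembly genes 11 were tested, 3 rose and 2 fell (45.5%, beside 31.0% of all genes). Tcirg1, the a3 isoform known from osteoclasts and macrophage lysosomes, measured 340, 338 and 347 CPM after PBS and 418, 453 and 484 CPM after WGP (0.40 ± 0.07, adjusted p = 0.0021). Its groups lay well apart, and it made up 72.7 ± 1.04% of the subunit a transcripts per kb after PBS and 78.8 ± 1.65% after WGP. The share of Atp6v0a1 was 14.7 ± 1.34% and 8.83 ± 1.18%. Atp6v0a2 rose from 86.3 ± 1.73 to 104 ± 0.630 CPM (0.27 ± 0.07, adjusted p = 0.013), a call lost without PBS 1 (0.064), with library sizes alone (0.094) and without both PBS 1 and PBS 3 (0.13). Wdr7, a partner of the pump's regulatory complex, rose by 0.35 (adjusted p = 0.015). That call was also lost without PBS 1 (0.067), PBS 3 (0.051) or both, with library sizes alone (0.064) and with the Y-linked covariate (0.093). Of the other assembly genes, Dmxl2 fell from 159 ± 49.8 to 86.2 ± 3.85 CPM (-0.89 ± 0.24, adjusted p = 0.04). Its call was lost without PBS 1 (0.11), WGP 1 (0.12), WGP 2 (0.11) or WGP 3 (0.095), with the replicate block (0.063) and without the count filter (0.076). Dmxl1, Vma21, Tmem199 and Ccdc115 did not pass (-0.25, 0.15, 0.16 and 0.24).

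Atp6v0d2 showed the largest difference among the pump genes tested. It measured 307, 337 and 188 CPM after PBS and 3.54, 28.6 and 9.47 CPM after WGP (-4.31 ± 0.84, adjusted p = 0.023). All WGP libraries lay far below the lowest PBS library. The share of the d2 isoform among subunit d transcripts per kb was 54.9, 56.6 and 45.1% in PBS 1, 2 and 3 and 1.51, 10.5 and 4.04% in WGP 1, 2 and 3. The summed level of both d isoforms was 193 ± 34.8 CPM per kb after PBS and 90.9 ± 8.15 after WGP. Atp6v0d2 is itself on the list of alveolar macrophage markers, whose sums were also lowest in WGP 1 and highest in PBS 2. The call was lost without PBS 1 (adjusted p = 0.076), PBS 2 (0.069) or WGP 3 (0.079), with the replicate block (0.058), with a covariate for Y-linked RNA (0.057) and without both PBS 1 and PBS 3 (0.2), while the direction was negative under all 18 alternatives.

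Among membrane proteins, both LAMP glycoproteins rose and Scarb2 fell. Lamp2, which also serves chaperone-mediated autophagy, measured 317, 332 and 300 CPM after PBS and 483, 440 and 426 CPM after WGP (0.51 ± 0.07, adjusted p = 6.5e-04). Lamp1 measured 949, 940 and 924 CPM after PBS and 1155, 1078 and 1128 CPM after WGP (0.26 ± 0.06, adjusted p = 0.012). Neither gene's groups overlapped. Lamp1 missed the threshold with library sizes alone (adjusted p = 0.082) and without both PBS 1 and PBS 3 (0.12). Scarb2 (LIMP-2), an abundant glycoprotein of the lysosomal membrane, measured 228, 238 and 213 CPM after PBS and 184, 205 and 190 CPM after WGP (-0.23 ± 0.07, adjusted p = 0.036). Its call was lost without PBS 1 (0.097), PBS 2 (0.1), WGP 1 (0.12) or WGP 3 (0.11) and without both PBS 1 and PBS 3 (0.083). Mcoln1, a calcium channel of the lysosome, measured 62.6, 61.8 and 60.8 CPM after PBS and 53.2, 51.2 and 56.0 CPM after WGP (-0.21 ± 0.08, 95% interval -0.39 to -0.03). The groups did not overlap and the adjusted p of 0.078 missed the threshold. It passed with upper quartile scaling (0.028) and library sizes alone (0.015).

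None of the 11 glycosidases rose and 4 fell (Naglu, Manba, Gaa and Hexa), with a median log2 fold change of -0.17. That is 36.4% changed, near the 31.0% of all genes (15.2% higher and 15.7% lower). Naglu, which trims heparan sulfate, measured 42.6, 32.0 and 34.4 CPM after PBS and 25.9, 26.9 and 24.8 CPM after WGP (-0.49 ± 0.13, adjusted p = 0.014). PBS 1 was the highest, and no library overlapped with the other group. Without PBS 1 the adjusted p was 0.071, without WGP 3 it was 0.054, and without both PBS 1 and PBS 3 it was 0.28. Manba, a β-mannosidase, had a log2 fold change of -0.30 ± 0.08 (adjusted p = 0.021), lost without PBS 2 (0.069), WGP 2 (0.065) or both PBS 1 and PBS 3 (0.069) and with the replicate block (0.056). Gaa, the acid α-glucosidase that degrades glycogen, had -0.29 ± 0.08 (adjusted p = 0.018), lost without PBS 1 (0.058), PBS 2 (0.063) or WGP 3 (0.068). Hexa, which takes part in the breakdown of gangliosides, measured 424, 405 and 407 CPM after PBS and 375, 350 and 328 CPM after WGP (-0.23 ± 0.07, adjusted p = 0.031). It missed the threshold without PBS 1 (0.11), PBS 2 (0.058), WGP 2 (0.073) or WGP 3 (0.13), without both PBS 1 and PBS 3 (0.26) and with the Y-linked covariate (0.075).

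The other 7 glycosidases did not pass: Glb1, Gusb, Gla, Man2b1, Neu1, Fuca1 and Idua had log2 fold changes of -0.04, -0.16, -0.30, 0.17, 0.09, -0.03 and -0.17. Gusb passed with library sizes alone (0.025). Man2b1 groups did not overlap (784 ± 27.2 and 884 ± 24.7 CPM, adjusted p = 0.07), and it passed in DESeq2 (0.03) and limma-voom (0.049). Gla, the α-galactosidase, stood apart in 1 library, with 46.3, 67.8 and 44.8 CPM after PBS and 41.7, 40.7 and 46.9 CPM after WGP. The high library was PBS 2, and with PBS 2 as the lone control the log2 fold change of Gla was -0.65. PBS 2 also had the highest sums of alveolar macrophage, epithelial and endothelial markers. Among the PBS libraries it had the most Y-linked RNA and the lowest sum of interstitial macrophage markers. A link of these to Gla was not tested. The 11 glycosidases together summed to 2018 ± 27.9 CPM after PBS and 1981 ± 19.4 CPM after WGP, with overlap. By library sizes alone the sums were 2089 ± 12.8 and 1911 ± 43.9 CPM and did not overlap.

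Sulfatases remove sulfate from glycosaminoglycans and sulfolipids, and here 1 of 4 rose and 1 fell. Over all genes tested 31.0% changed (15.2% higher and 15.7% lower). Arsb (N-acetylgalactosamine-4-sulfatase) measured 76.8, 62.6 and 70.9 CPM after PBS and 49.3, 46.3 and 46.4 CPM after WGP, the largest fall of the 44 (-0.57 ± 0.10, adjusted p = 0.0014). The WGP libraries lay close together and below all PBS libraries, and without both PBS 1 and PBS 3 the adjusted p was 0.076. Of its exon bases 32.3% overlap a non-coding gene on the opposite strand, and the strand setting of the counting is not given in the sources used here. Non-coding genes on the opposite strand also overlap exons of Arsa (18.8%) and Atp6v0b (11.8%), and protein-coding genes on the opposite strand overlap those of Hexa (12.8%), Lamp1 (9.3%) and Npc1 (4.5%). Galns, which acts on keratan and chondroitin sulfate, measured 45.7, 49.5 and 48.3 CPM after PBS and 65.8, 59.3 and 59.8 CPM after WGP (0.37 ± 0.09, adjusted p = 0.0094). Its groups did not overlap, and the adjusted p was 0.054 without PBS 1 and 0.16 without both PBS 1 and PBS 3. Ids and Arsa did not pass (0.11 and -0.16).

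The lipid handling genes held both the largest rise and a clear fall. Npc2, the soluble protein that takes cholesterol out of lysosomal membranes and hands it on, measured 634, 644 and 725 CPM after PBS and 1036, 1010 and 1082 CPM after WGP, 56.1% higher (0.64 ± 0.07, adjusted p = 1.6e-04). Npc1, the membrane protein that receives cholesterol from NPC2, measured 202, 194 and 170 CPM after PBS and 144, 140 and 132 CPM after WGP (-0.44 ± 0.08, adjusted p = 0.0022). The groups were apart for both genes, in opposite directions. The ratio of Npc2 to Npc1 in CPM per kb was 6.54, 6.92 and 8.88 after PBS (mean 7.45 ± 1.25) and 15.7 ± 1.20 after WGP, with no overlap. Both calls held under all 18 alternatives.

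Psap, the precursor of the saposins that present sphingolipids to hydrolases, was the most abundant of the 44. It measured 7714, 7209 and 8127 CPM after PBS and 10143, 9838 and 10550 CPM after WGP (0.41 ± 0.07, adjusted p = 0.0019), or 2800 and 3709 CPM per kb on average. It supplied 43.8 ± 1.91% of the summed CPM of the 44 after PBS and 48.9 ± 0.812% after WGP. The summed level of all 44 was 17524 ± 293 CPM after PBS and 20799 ± 395 after WGP, with no overlap, and most of that difference was Psap: the other 43 summed to 9841 ± 175 and 10622 ± 73.0 CPM. By library sizes alone these 43 summed to 10187 ± 136 and 10251 ± 196 CPM and overlapped. Gm2a, the GM2 activator, did not pass (0.10, adjusted p = 0.33). Lipa, the acid lipase for cholesteryl esters and triglycerides, measured 297, 327 and 241 CPM after PBS and 233, 247 and 268 CPM after WGP (-0.21 ± 0.11, adjusted p = 0.17). PBS 3 lay among the WGP libraries, and without PBS 3 Lipa passed (0.015), as it did with library sizes alone (0.042), with the Y-linked covariate (0.012) and without both PBS 1 and PBS 3 (0.035).

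The protein turnover genes split as well. Tpp1, a tripeptidyl peptidase, measured 199, 206 and 173 CPM after PBS and 137, 143 and 136 CPM after WGP (-0.47 ± 0.08, adjusted p = 0.0015), with all WGP libraries below all PBS libraries. Ppt1, which removes palmitate from proteins, measured 243, 313 and 235 CPM after PBS and 355, 354 and 306 CPM after WGP (0.36 ± 0.11, adjusted p = 0.036). PBS 2 lay above WGP 3, the only overlap among the 20 changed genes. The Ppt1 call was lost without PBS 1 (0.15), PBS 3 (0.12), WGP 1 (0.094) or WGP 2 (0.096), with upper quartile scaling (0.067), library sizes alone (0.11) or the Y-linked covariate (0.21), and without both PBS 1 and PBS 3 (0.57). Its exons share bases with Cap1, a far more abundant gene on the opposite strand. Grn (progranulin) measured 842, 824 and 856 CPM after PBS and 971, 881 and 872 CPM after WGP (0.11 ± 0.07, 95% interval -0.04 to 0.26, adjusted p = 0.25). Its groups did not overlap, with WGP 3 just above PBS 3.

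**Figure D3:**
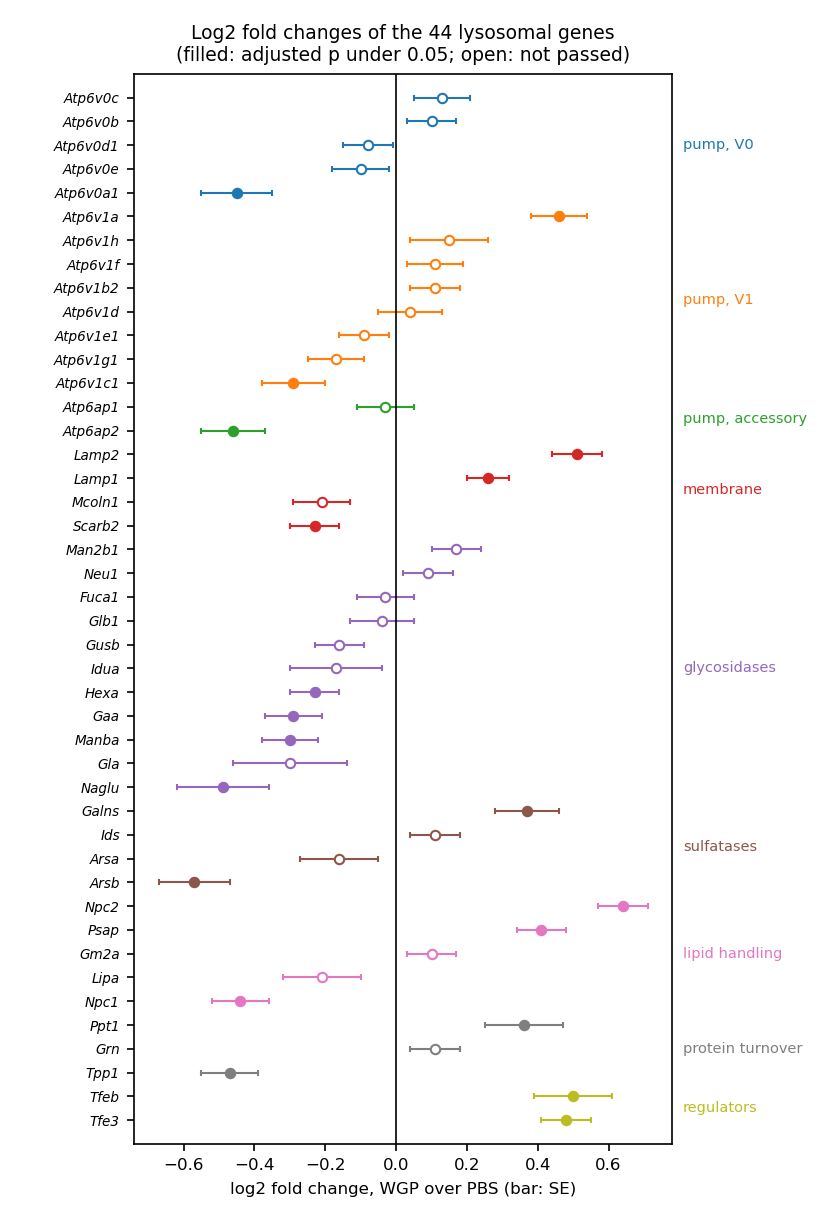
Log2 fold change of WGP over PBS for each of the 44 genes with its SE, ordered within each role, filled where the adjusted p was under 0.05. Filled points lie on both sides of 0 from -0.57 to 0.64, and 11 of the 15 pump genes are open.

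Of the 20 changed genes 8 kept their call under all 18 alternatives: Lamp2, Npc2, Psap, Tfeb and Tfe3 among those that rose and Atp6ap2, Npc1 and Tpp1 among those that fell. In GENCODE M21 on GRCm38 the genes of that set with the largest changes lie at chromosome 12, 84754562 to 84773152 (Npc2), and chromosome X, 38401357 to 38456454 (Lamp2).

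**Figure D4:**
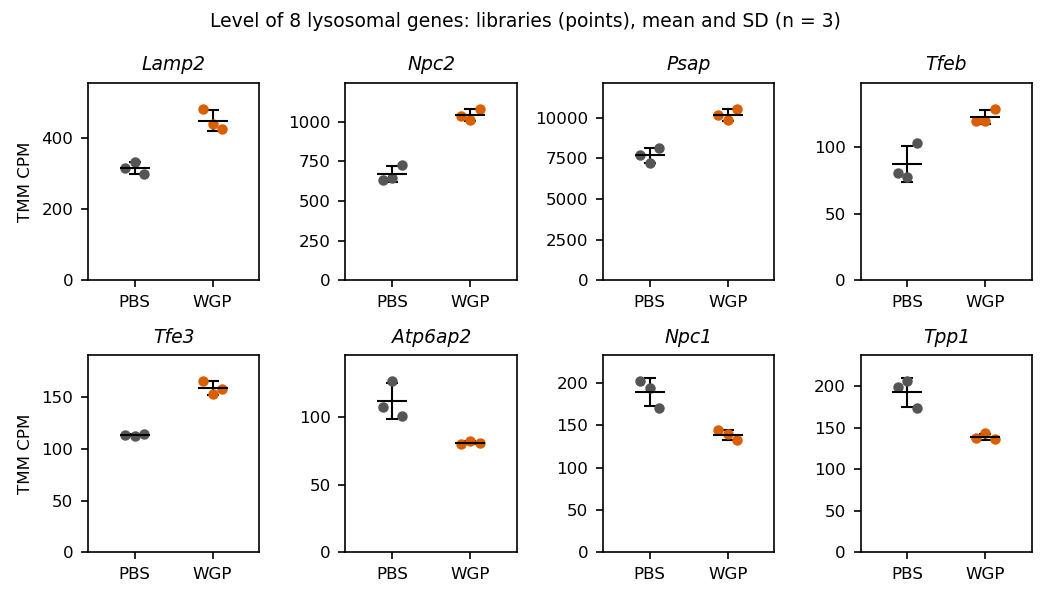
TMM CPM (linear axes from 0) of the 8 genes called under every alternative, with libraries as points and the mean and SD of 3. PBS and WGP libraries do not overlap in any panel, as in Npc2 with 634 to 725 CPM after PBS and 1010 to 1082 after WGP. The choice of genes by their calls makes such a gap likely, and groups did not overlap for 48.1% of all genes tested.

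A wider list of 77 lysosomal genes outside the 44 showed a like split: of 72 tested, 16 rose and 17 fell (45.8%, beside 31.0% of all genes), with a median log2 fold change of -0.07. Of 20 further hydrolases and helpers 4 rose and 5 fell (45.0%). Acp5, the tartrate-resistant acid phosphatase, measured 104, 106 and 88.0 CPM after PBS and 35.8, 37.6 and 36.6 CPM after WGP (-1.44 ± 0.09, adjusted p = 1.1e-05). Pla2g15, a lysosomal phospholipase, measured 181, 206 and 152 CPM after PBS and 67.9, 78.5 and 66.2 CPM after WGP (-1.34 ± 0.12, adjusted p = 5.4e-05). Both fell by more than any of the 44.

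Of 18 further membrane proteins 3 rose and 4 fell (38.9%, beside 31.0% of all genes). Cd63, a tetraspanin of late endosomes that is also on the list of interstitial macrophage markers, fell (-2.02 ± 0.23, adjusted p = 6.3e-04), as did Mcoln3, a relative of Mcoln1, from 40.9 ± 12.4 to 2.98 ± 1.76 CPM (-3.77 ± 0.49, adjusted p = 0.0032). Ostm1, the partner of a lysosomal chloride transporter, rose (0.45 ± 0.08, adjusted p = 0.0017). Of 9 genes that mark or carry hydrolases to lysosomes 3 rose and 3 fell (66.7%), among them the adaptor Gga2 (-1.42 ± 0.18, adjusted p = 2.5e-04), the adaptor Gga1 (0.38, adjusted p = 0.0041) and the mannose 6-phosphate receptor Igf2r (-0.55, adjusted p = 0.0068). Of 14 genes of the lysosomal mTORC1 machinery 3 rose and 3 fell (42.9%). Lamtor4 and Lamtor1, of the scaffold that anchors this machinery, rose (0.86 ± 0.09, adjusted p = 1.2e-04, and 0.45 ± 0.08, adjusted p = 0.0015). The other scaffold genes, Lamtor2, Lamtor3 and Lamtor5, did not pass (-0.00, -0.04 and 0.14). Besides Tfec, the genes of this list that fell were Rragc and Rragd, named here after their values were seen. Rragc had -0.39 ± 0.08 (adjusted p = 0.0034). Rragd had -3.27 ± 0.92 (adjusted p = 0.02) at a mean of only 1.82 CPM after PBS. The Rragd call was lost without PBS 1 (0.12), PBS 3 (0.052) or both, and with the Y-linked covariate (0.065).

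**Figure D5:**
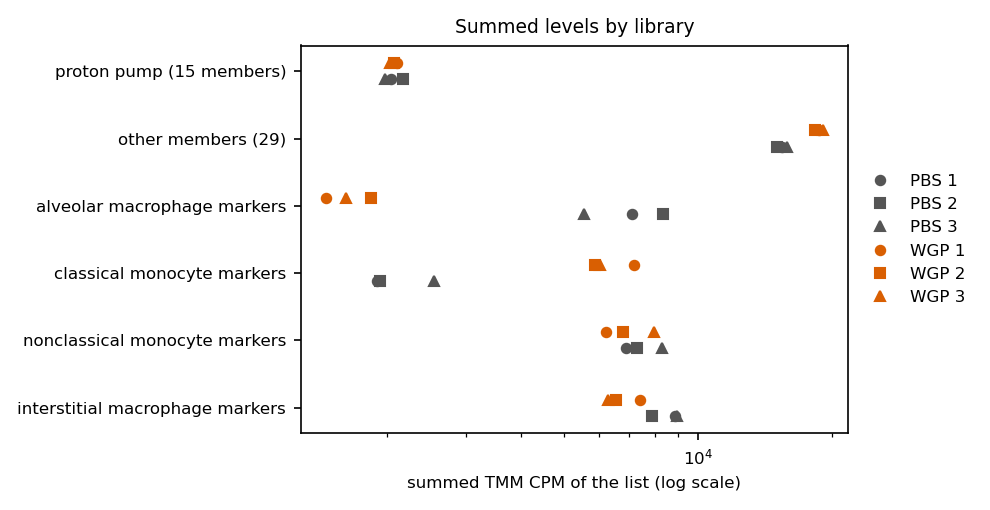
Summed TMM CPM (log axis) of the pump genes, the other 29 members and 4 lists of cell markers, with 1 point per library. Pump sums overlap between groups (1974 to 2171 after PBS, 2025 to 2100 after WGP), and alveolar macrophage and classical monocyte sums stand apart in opposite directions.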

How the data were processed

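The deposited table holds whole-number read counts per gene for 6 libraries, made by the authors before deposit. The tools HTSeq 0.10.0 and FastQC 0.10.1 and the builds GRCm38 and mm10 are named, without their roles, per the submitters' processing notes. Neither the aligner nor the annotation nor the strand setting is given in the sources used here. Groups came from the labels. GENCODE M21 (GRCm38) gave symbols, coordinates and exon lengths for 21939 of 21965 genes; 6462 genes had no count. Totals of 18254678 to 20346517 counts set the depth, and the biological coefficient of variation was 0.18. Replicates differed by a chi-square of 13.5 to 24.8 per degree of freedom, more than sampling noise, and each was counted once.

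WGP was tested against PBS in edgeR 4.0.16 (R 4.3.3; filterByExpr, TMM, glmQLFit with robust estimation, two-sided quasi-likelihood F test) over 12305 genes, with Benjamini-Hochberg adjustment and a threshold of 0.05. No exact test of 3 against 3 libraries could reach that threshold, so single genes were tested only in this fit. The members, lists and tests were chosen with earlier results of these data known. Full values are given for the 12 largest changes, the smallest p in each role, fixed names (Tfeb, Tfe3, Mcoln1, Lamp1, Lamp2, Atp6v0d1, Atp6v0c, Psap, Npc2, Lipa and Grn), and, outside the 44, the 3 smallest p in each list with Atp6v0d2, Tcirg1, Mitf and Tfec (some genes that met the rule are not reported here); the other changed members and near misses were named after their values were seen. Alternatives were other scalings, filters, DESeq2 1.42.0, limma-voom (limma 3.58.1), a replicate block, a Y-linked covariate and left-out libraries. Summed levels and levels per kb are descriptions, without a test.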

Additional observations from a re-analysis of the deposited data

How the results depend on the processing

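Of 792 values of the 44 genes under 18 alternatives, 737 stayed on their side of the threshold, 42 lost the call and 13 gained it. No value of the 20 changed genes changed sign, and 8 values of 4 genes that did not pass (Atp6v1d, Atp6ap1, Neu1 and Fuca1) did. Counts of members moved by over 1.5 times without both PBS 1 and PBS 3 (5 higher and 6 lower), where the lone PBS library is taken to vary like the WGP libraries. With each replicate left out in turn, 7 to 9 members were higher and 6 to 12 lower, and over all genes 1202 to 1753 were higher and 1289 to 1964 lower. Over all genes library sizes alone gave 1236 higher, and leaving out both PBS libraries gave 993 higher and 827 lower, in place of 1874 and 1935. Among the other lysosomal genes the counts moved to 26 lower with library sizes alone, 8 higher without both PBS libraries and 11 lower without PBS 1. The causes were not tested. Same-numbered PBS and WGP libraries did not deviate together (correlations of -0.0633, -0.0811 and -0.0458), and differently numbered ones had -0.0433 to 0.112. With 3 libraries a group these values cannot settle whether the numbers pair the libraries. The fit with a replicate block is therefore only an alternative: it called 9 members higher and 9 lower, and 1584 and 1601 over all genes. With 3 libraries a group, the 95% intervals of members that did not pass reached from -0.65 to 0.39, so differences of that size may go uncalled.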

Other observations

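Enzymes that degrade heparan sulfate, a grouping chosen after their values were seen, changed in both directions. Sgsh, the sulfamidase, measured 39.5, 35.5 and 40.9 CPM after PBS and 74.5, 59.4 and 69.8 CPM after WGP (log2 fold change 0.81 ± 0.11, adjusted p = 3.3e-04, edgeR). Hgsnat, the membrane acetyltransferase that acts after it, measured 96.9, 103 and 95.2 CPM after PBS and 168, 163 and 176 CPM after WGP (0.78 ± 0.07, adjusted p = 4.5e-05). Naglu, which removes the acetylated sugar, fell (-0.49 ± 0.13, adjusted p = 0.014). Ids and Idua did not pass. Naglu was called neither without PBS 1 (adjusted p = 0.071) nor without WGP 3 (0.054) nor without both PBS 1 and PBS 3 (0.28), and the calls of Sgsh and Hgsnat held under each of the 18 alternatives.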
